A study of Solanum tuberosum with 12 samples.

Results

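The transcripts followed here in potato tuber skin are annotated for enzymes that supply phenolics or can link them to one another. There was 1 for DAHP synthase (PGSC0003DMT400079161, annotated as phospho-2-dehydro-3-deoxyheptonate aldolase 1). There were 2 for phenylalanine ammonia-lyase, PAL (PGSC0003DMT400049886 and PGSC0003DMT400055489, here called PALa and PALb), and 1 for a peroxidase (PGSC0003DMT400012995). Together these make 4 of the 54416 transcripts in the count tables. They were chosen by their annotation in the study's list of transcripts that differed between StRIK-RNAi and Wild type periderm, so the RNAi against Wild type contrast of these libraries chose them. Their values in that contrast are therefore given below as a description, with no test. Tests were kept to other contrasts: differences among the RNAi lines, and relations across the 9 RNAi libraries. As 6 of these 9 also entered the contrast with Wild type, the tests are not independent of the choice.

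The paper describes the StRIK protein as putatively RNA-binding, with KH domains, and found a tagged form in the nucleus in N. benthamiana leaves. The study silenced StRIK to ask what it does in the periderm. The plants were cultivar Désirée, grown in soil under 12 h light and 12 h dark, and RNA came from the skin of freshly harvested tubers, which holds mainly phellem (cork) with its phellogen. Wild type was untransformed, and lines 9, 12 and 47 each carried a hairpin transgene, pBIN19RNAi, against 3 isoforms of StRIK. Each genotype had 3 libraries, labelled as replicates 1 to 3. Each line is 1 transformation event, so its 3 libraries show the spread within that event. The study's comparison set the 3 Wild type libraries against 6 RNAi libraries, which the paper chose for StRIK below 2/3 of Wild type. They were all of line 47, replicates 2 and 3 of line 12, and replicate 1 of line 9. The replicates are those named in the column headers of the study's list. The other 3 RNAi libraries did not enter the comparison.

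DAHP synthase catalyses the first committed step of the shikimate pathway, in plastids, which leads to phenylalanine. PAL removes the amino group of phenylalanine to give cinnamic acid, the step by which carbon leaves amino acid metabolism for phenylpropanoids such as the hydroxycinnamic acids of suberin and the monolignols of lignin. Plant secretory (class III) peroxidases use hydrogen peroxide to oxidise phenolics in the cell wall, where they are linked to one another, and cork is rich in such cross-linked phenolics. The annotation does not say to which branch of this pathway any of the 4 transcripts contributes.

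The 12 libraries held 18650236 to 21585122 effective counts each, which are read counts corrected by the quantifier for how much of a transcript can yield fragments. No pair of libraries held identical values. StRIK, summed over its 3 targeted isoforms, stood at 1642 to 1754 normalized counts in Wild type and at 704 to 1435 in the 9 RNAi libraries, so the groups did not overlap. Line 12 replicate 1, outside the study's comparison, had 1015, close to the 984 and 970 of line 47 replicates 2 and 3, which entered it. A chlorophyll a-b binding protein transcript, a marker of green tissue, had 0 to 14.5 normalized counts. Phellem markers were not analysed here, because no source used here pairs their names with these identifiers. File names carried a lane tag of 6 for the Wild type libraries and line 47 replicates 2 and 3, and of 7 for the other 7 RNAi libraries. The sources do not say what the tag marks. Lane tag and genotype therefore cannot be told apart between Wild type and lines 9 and 12.

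All 4 transcripts were among the most heavily counted in the skin. Ranked by effective counts within each library, the peroxidase held places 12 to 19, PALb places 12 to 29, PALa places 9 to 33 and DAHP synthase places 9 to 41. Together they took 1.096% (line 12 replicate 1) to 1.501% (line 9 replicate 1) of a library's effective counts, and the Wilson 95% intervals, which express nothing but counting error, were at most ± 0.00545 percentage points. Wild type took 1.21%, 1.25% and 1.22%. Transcript lengths were not used here, so a rank says how many fragments a transcript gave and not how many molecules it had. Effective counts were put on a common scale by dividing by the TMM-scaled library size and multiplying by the mean of these sizes, 19876858. These values are called normalized counts below.

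**Figure D1:**
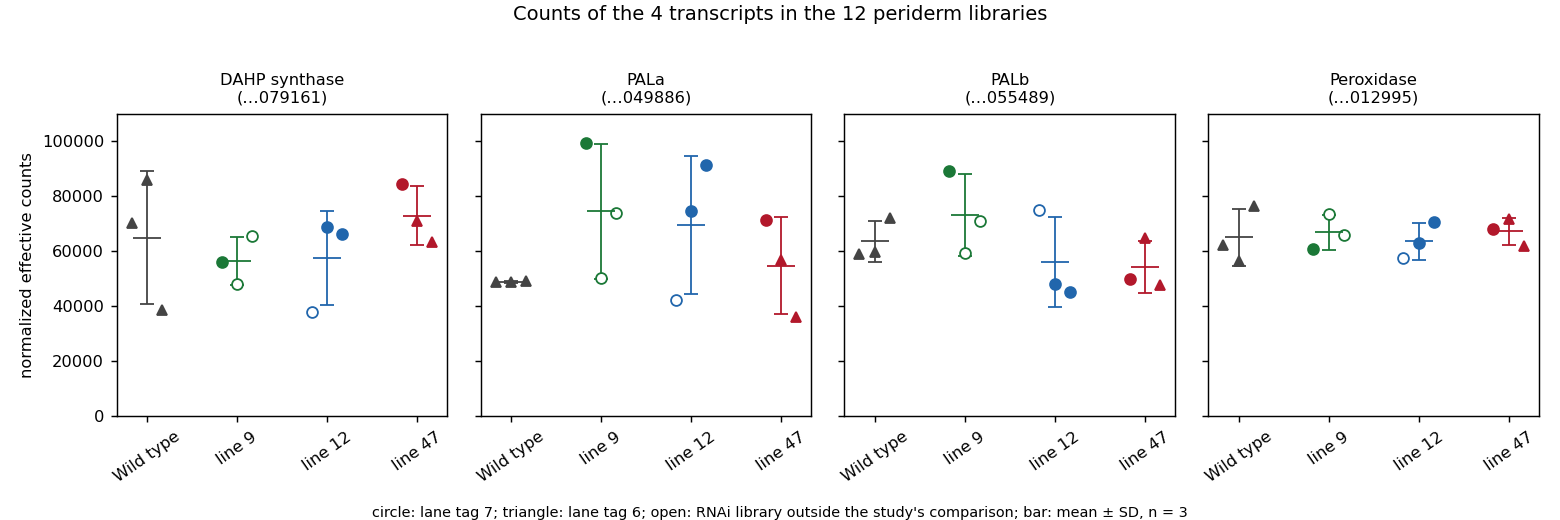
Normalized effective counts (y axis) of the 4 transcripts in each library, by genotype (x axis). Symbols are single libraries, open symbols the 3 RNAi libraries outside the study's comparison, triangles lane tag 6 and circles lane tag 7, and bars are mean ± SD (n = 3). PALa lies between 48636 and 49069 in Wild type and between 36102 and 99345 in the RNAi libraries, while the peroxidase stays between 56390 and 76336 throughout.

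DAHP synthase, at the head of the pathway, varied as much between libraries of a genotype as between genotypes. Its normalized counts were 70195, 85948 and 38499 in Wild type replicates 1 to 3, 56114, 48105 and 65352 in line 9, 37902, 68638 and 66358 in line 12, and 84509, 71139 and 63167 in line 47. The highest library (Wild type replicate 2) and the second lowest (Wild type replicate 3) were both Wild type, the lowest was line 12 replicate 1, and every genotype overlapped every other. The genotype means were 72938 ± 10784 (SD, n = 3) in line 47, 64881 ± 24167 in Wild type, 57633 ± 17126 in line 12 and 56524 ± 8631 in line 9, in an order whose neighbours lay well within these SDs. The range over the 12 libraries was 2.27-fold.

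PALa showed the most uneven spread of the 4. It had 48636, 48813 and 49069 normalized counts in Wild type, 99345, 50091 and 73931 in line 9, 42130, 74523 and 91463 in line 12, and 71310, 56806 and 36102 in line 47. All 3 line 9 libraries were above all Wild type libraries, while lines 12 and 47 each had 1 library below Wild type and 2 above it. The Wild type libraries differed by a coefficient of variation of 0.446% (mean 48839 ± 218), against 33.1% in line 9 (74456 ± 24631), 36.1% in line 12 (69372 ± 25067) and 32.3% in line 47 (54739 ± 17695). Over the 12 libraries the range was 2.75-fold, the widest of the 4 transcripts.

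PALb did not share that pattern. Its normalized counts were 59119, 59572 and 72209 in Wild type, 89149, 59375 and 70958 in line 9, 74828, 48118 and 45173 in line 12, and 49866, 64958 and 47807 in line 47. Line 9 replicate 1 was highest for both PAL transcripts, but line 12 replicate 1, the lowest of its line for PALa, was by far the highest of its line for PALb. All genotypes overlapped, with means of 73161 ± 15009 in line 9, 63633 ± 7431 in Wild type, 56040 ± 16338 in line 12 and 54210 ± 9365 in line 47, and the range was 1.97-fold.

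The peroxidase had the narrowest range of the 4 over the 12 libraries. It gave 62316, 56390 and 76336 normalized counts in Wild type, 60767, 73656 and 66010 in line 9, 57345, 62945 and 70614 in line 12, and 68004, 71560 and 62038 in line 47. Wild type held both its lowest and its highest library, so every RNAi library lay inside the Wild type range. The means ran only from 63635 ± 6661 in line 12 through 65014 ± 10243 in Wild type and 66811 ± 6482 in line 9 to 67201 ± 4811 in line 47, and the range over all 12 libraries was 1.35-fold.

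Whether the 3 silenced lines differed from one another was tested with edgeR's quasi-likelihood test over the 38364 transcripts with at least 10 counts, with Benjamini-Hochberg adjustment over all of them. None of the 4 transcripts passed an adjusted p of 0.05 in the joint test of the 3 lines, where 0.0417% of all transcripts tested did. The adjusted p was 0.775 for DAHP synthase, 0.764 for PALa, 0.632 for PALb and 0.971 for the peroxidase, and none of the 4 reached an unadjusted p of 0.05, as 11.3% of all transcripts tested did, nor did any under DESeq2 or limma-voom. With so few members, 0 of 4 is close to what that share gives. A two-sided exact permutation test over the 280 splits of the 9 RNAi libraries, whose smallest possible p is 0.00357, gave p = 0.371, 0.55, 0.246 and 0.725 in the same order.

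Pair by pair, the lines were likewise not separated, and the intervals show how large a difference these 3 libraries a line leave possible. Of all transcripts tested, 0.0365% were called between lines 12 and 9, 0.0209% between lines 47 and 9 and 0.0235% between lines 47 and 12, and 0 of the 4 in each, also with DESeq2 and limma-voom. At an unadjusted p of 0.05 edgeR had 0 of the 4 in each pair, against 9.69%, 12.6% and 7.44% of all transcripts tested. Without line 12 replicate 1, PALb reached it between lines 12 and 9 (log2FC -0.66, edgeR adjusted p = 0.386). No pair of lines was free of overlap for any of the 4 either, where 14.2% of all transcripts tested did not overlap between lines 12 and 9, 19.6% between lines 47 and 9 and 16.6% between lines 47 and 12. The lowest adjusted p belonged to PALb, with a log2FC of -0.43 in line 47 relative to line 9 (SE 0.27, 95% interval -1.01 to 0.15, edgeR adjusted p = 0.513) and -0.38 in line 12 relative to line 9 (SE 0.27, interval -0.96 to 0.19). PALa differed by -0.44 between lines 47 and 9 (SE 0.35, interval -1.20 to 0.31) and DAHP synthase by 0.37 (SE 0.32, interval -0.34 to 1.07). Line 47 has 2 libraries of another lane tag than line 9. With the lane tag as a term the difference was -0.062 for PALa and 0.58 for DAHP synthase. The tag varies only within line 47, so these values set line 47 replicate 1 alone against line 9. They cannot separate the lane tag from that library. Leaving out 1 library moved PALa between -0.67 (without line 47 replicate 1) and -0.18 (without line 9 replicate 1). Between lines 47 and 9, the interval of each of these 3 transcripts reached past 1 in size on the log2 scale. The peroxidase was bounded more tightly: its 3 differences were -0.07, 0.01 and 0.08 (SE 0.21 each), with intervals that together ran from -0.53 to 0.54.

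**Figure D2:**
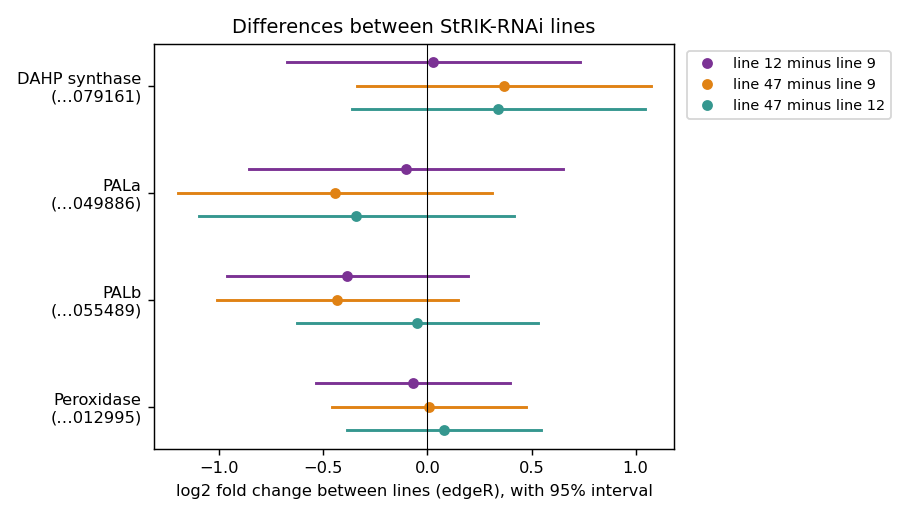
Log2FC between pairs of StRIK-RNAi lines from edgeR (x axis) for the 4 transcripts (y axis), with 95% intervals as lines and the pair given by colour. All 12 intervals include 0, and the 3 of the peroxidase, between -0.53 and 0.54, are the narrowest.

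In the contrast that chose them, the fitted differences were small for 3 of the 4 transcripts. Across the 6 RNAi libraries of the study's comparison the log2FC relative to Wild type was 0.07 (SE 0.25) for DAHP synthase, 0.55 (SE 0.29) for PALa, -0.15 (SE 0.24) for PALb and 0.02 (SE 0.17) for the peroxidase. The 3 RNAi libraries outside that comparison, set against the same Wild type libraries, gave -0.37 (SE 0.36), 0.17 (SE 0.27), 0.10 (SE 0.24) and 0.01 (SE 0.26). DAHP synthase and PALb thus had opposite signs in the RNAi libraries that entered and those that did not, and PALa was above Wild type on average in both. By line, PALa stood at 0.61 in line 9, 0.51 in line 12 and 0.16 in line 47 relative to Wild type (SE 0.35 each). Set against Wild type with the 2 line 47 libraries of the same lane tag alone, PALa was at -0.06 (SE 0.29), and the part of the lane tag in its difference was not tested. PALa in line 9 was the single case of the 12 line and transcript combinations in which a line did not overlap Wild type, where 12.2% of all transcripts tested did not overlap in line 9, 15.5% in line 12 and 11.0% in line 47. In bulk skin, fewer cells of a type and less RNA per cell cannot be told apart.

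The 2 PAL transcripts contributed differently from library to library, which is seen within a library and does not depend on how libraries are scaled. PALa made up 45.1%, 45.0% and 40.5% of the effective counts of both in Wild type, 52.7%, 45.8% and 51.0% in line 9, 36.0%, 60.8% and 66.9% in line 12, and 58.8%, 46.7% and 43.0% in line 47. The Wild type libraries lay below an even split of counts and close to each other, whereas line 12 held both the lowest and the highest share of the 12 libraries. As transcript lengths were not used, an even split of counts need not be an even split of molecules. Counting error was small beside this, with Wilson 95% intervals of at most ± 0.310 percentage points. Put as a ratio, PALa to PALb ran from 0.563 in line 12 replicate 1 to 2.02 in line 12 replicate 3. All 5 libraries of lane tag 6 lay below 50%, and of the 7 of lane tag 7, 5 lay above it. The quantifier divides fragments that fit several transcripts among them, so similar PAL copies can trade counts, and the split is less certain than the sum.

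**Figure D3:**
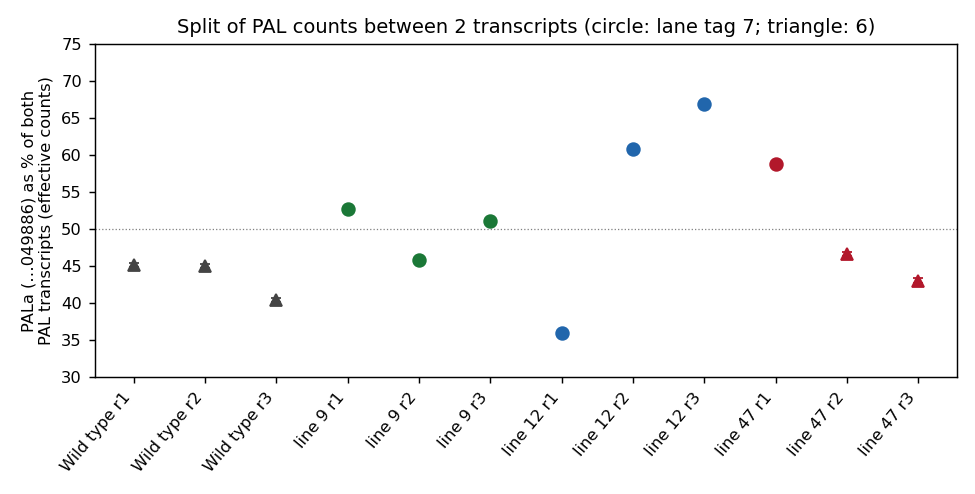
PALa as a percent of the effective counts of PALa and PALb together (y axis) in each library (x axis), with Wilson 95% intervals that are mostly smaller than the symbols, circles for lane tag 7, triangles for lane tag 6, and a dotted line at an even split of counts, which need not be one of molecules. Wild type lies at 40.5% to 45.1% and line 12 spans 36.0% to 66.9%.

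The sum of both PAL transcripts was 107755, 108385 and 121278 normalized counts in Wild type, 188495, 109467 and 144890 in line 9, 116958, 122641 and 136635 in line 12, and 121176, 121764 and 83908 in line 47. Line 12, whose split varied most, had a steady sum (125411 ± 10127), because PALa and PALb moved in opposite ways among its 3 libraries. In line 9 both moved together, and its sum varied 1.72-fold. The highest sum, in line 9 replicate 1, was 2.25 times the lowest, in line 47 replicate 3.

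The spread of each transcript was set beside that of all 240 transcripts with a mean of at least 10000 normalized counts, as the SD of log2 normalized counts. Over the 12 libraries the SD was 0.39 for DAHP synthase, 0.46 for PALa, 0.30 for PALb and 0.14 for the peroxidase, where the median of the 240 was 0.37. DAHP synthase and both PAL transcripts sat in the middle of that range, with 52.9%, 65.8% and 34.6% of the 240 below them, while 5 of the 240 (2.08%) were steadier than the peroxidase. Among the 3 Wild type libraries alone the order was another: the SD of PALa was 0.0064, the smallest of the 240, against a median of 0.31, and that of DAHP synthase was 0.60, above 82.5% of them. There the peroxidase, at 0.22 with 33.3% of the 240 below it, varied more than PALb, at 0.16 with 20.8% below. The Wild type libraries entered the contrast that chose these transcripts, and whether that choice bears on the small spread of PALa was not tested. Within genotypes, pooled, the SDs were 0.41, 0.46, 0.29 and 0.16, and 16 of the 240 were steadier than the peroxidase.

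**Figure D4:**
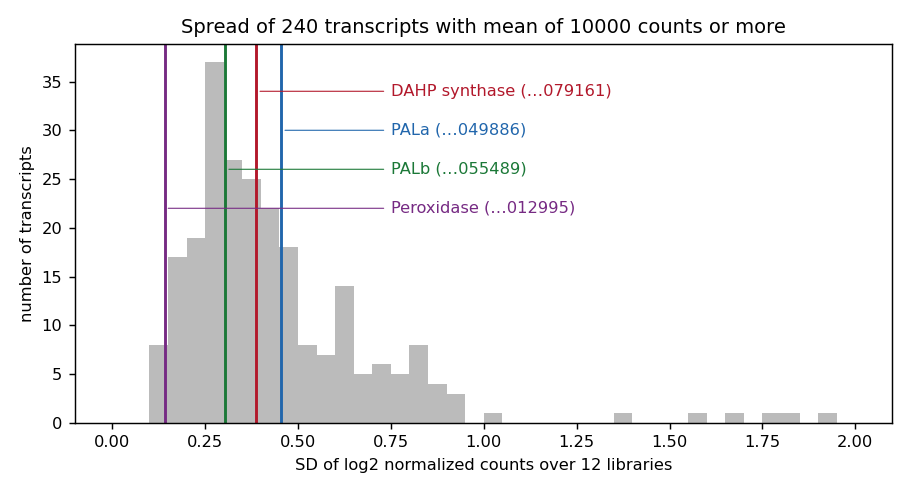
Histogram of the SD of log2 normalized counts over 12 libraries (x axis) for the 240 transcripts with a mean of at least 10000 normalized counts (y axis, number of transcripts), with coloured lines at the 4 transcripts. The peroxidase, at 0.14, lies at the low edge, and DAHP synthase and both PAL transcripts, at 0.30 to 0.46, lie about the median of 0.37.

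No relation among the 4 transcripts across libraries passed a test, and the widest involved DAHP synthase. Over the 9 RNAi libraries, 6 pairs were compared on log2 normalized counts with exact permutation tests, and none passed (Benjamini-Hochberg adjusted p from 0.488 to 0.773). Between DAHP synthase and PALb, r was -0.51 (exact permutation p = 0.163, adjusted 0.488) and Spearman's rho was -0.43 (exact p = 0.25, adjusted 0.655). Between DAHP synthase and PALa, r was 0.42 (exact permutation p = 0.261, adjusted 0.488) and rho was 0.30 (exact p = 0.437, adjusted 0.655). DAHP synthase and the peroxidase had r = 0.43 (exact permutation p = 0.258, adjusted 0.488) and rho = 0.42. The 2 PAL transcripts had r = 0.11 (exact permutation p = 0.773) and rho = 0.067.

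Which relation was the widest depended on how genotype and lane tag were handled. Over all 12 libraries, where r mixes in the genotype differences that chose the members and is given with no test, r was -0.51 for DAHP synthase with PALb and 0.29 for DAHP synthase with PALa. As deviations from genotype means the same pairs had r of -0.53 and 0.56, and over the 7 libraries of lane tag 7 they had -0.57 and 0.68. Without Wild type replicate 3 and line 12 replicate 1, the 2 libraries farthest from the median of DAHP synthase over all 12, they had -0.31 and -0.057. Leaving these 2 out narrows the range of DAHP synthase, so how far both relations leaned on them cannot be told. The other r values over all 12 libraries were 0.05 for PALa with PALb, -0.21 for DAHP synthase with the peroxidase, 0.15 for PALa with the peroxidase and -0.13 for PALb with the peroxidase. Libraries of 1 line share a transformation event, so the points are not fully independent.

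DAHP synthase followed the main axis along which the libraries differed. The first principal component of the 17167 transcripts with a mean of at least 100 normalized counts held 37.5% of their variance and did not separate the genotypes: line 12 replicate 1 (-64.7), Wild type replicate 3 (-38.0) and line 9 replicate 2 (-36.5) lay at one end, and Wild type replicate 2 (45.8), line 47 replicate 1 (40.0) and Wild type replicate 1 (31.5) at the other. The r with this component was 0.96 for DAHP synthase, -0.55 for PALb, -0.19 for the peroxidase and 0.18 for PALa. The component was computed from the same libraries and includes these transcripts, so the values are a description over 12 points. How common such an r was among the other transcripts was not counted, and what the component stands for was not tested.

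**Figure D5:**
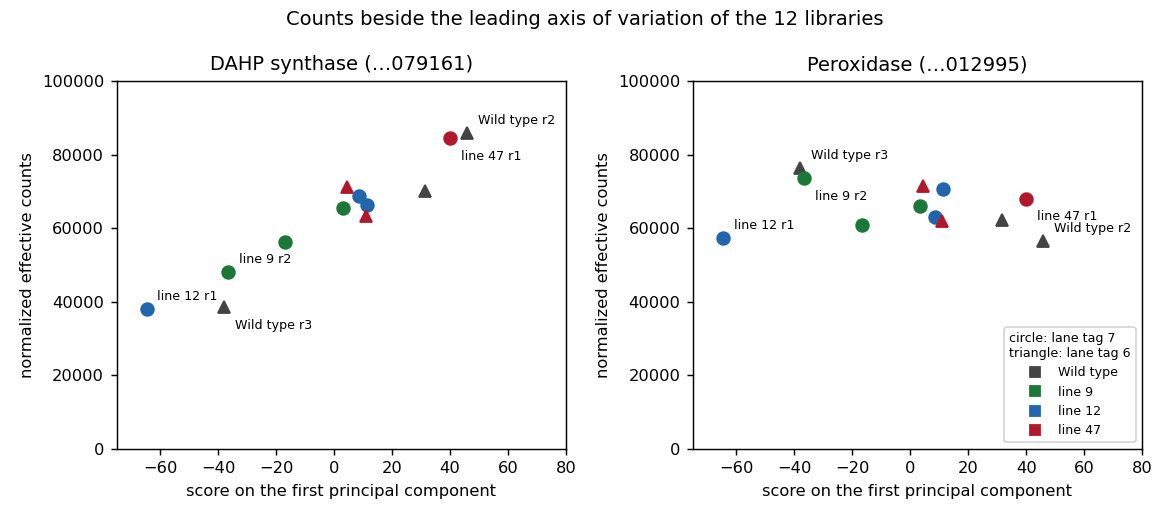
Normalized effective counts (y axis) of DAHP synthase (left) and the peroxidase (right) against each library's score on the first principal component (x axis), coloured by genotype, with the libraries at either end named. DAHP synthase climbs from 37902 in line 12 replicate 1 to 85948 in Wild type replicate 2, and the peroxidase has no such slope.

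More transcripts shared the profile of DAHP synthase than that of any of the other 3. Among the other 17166 transcripts with that mean, 315 had r of at least 0.9 with DAHP synthase over the 12 libraries and 44 had r of -0.9 or below. The closest were PGSC0003DMT400011741 (r = 0.99), at 602 normalized counts in line 12 replicate 1 and 1368 in line 47 replicate 1, and PGSC0003DMT400062384 (r = 0.98). The most opposed were PGSC0003DMT400044062 and PGSC0003DMT400000504 (both r = -0.97). The same limits held 5 and 1 transcripts for PALa, 6 and 4 for PALb, and none for the peroxidase, whose closest transcript had r = 0.84 and whose most opposed had r = -0.82. None of these most similar or most opposed transcripts is annotated in the sources used here, and over 12 points, these values are a description. How many transcripts reach such r with a usual transcript was not counted.

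The amount of StRIK left in a silenced library had no relation to any of the 4 that passed a test. Over the 9 RNAi libraries, r between log2 StRIK and log2 counts was -0.55 for DAHP synthase (exact permutation p = 0.12, rho = -0.63 with exact p = 0.076), -0.44 for PALa (rho = -0.48), 0.42 for PALb (rho = 0.48) and 0.15 for the peroxidase (rho = 0.10). After Benjamini-Hochberg adjustment over these 4 relations the exact p values were 0.345, 0.345, 0.345 and 0.698. The permutation shuffles the 9 libraries freely, although those of a line share a transformation event and are not fully independent. DAHP synthase was highest in line 47 replicate 1, which had the least StRIK (704 normalized counts), and second lowest in line 9 replicate 2, which had the most (1435). Without these 2 libraries, r was -0.20 for DAHP synthase, -0.39 for PALa, 0.53 for PALb and -0.21 for the peroxidase. Leaving them out narrows the range of StRIK, so how far the relation of DAHP synthase rested on them cannot be told.

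Transcripts with neighbouring identifiers were also looked at. Consecutive identifiers can be isoforms of 1 locus, as for StRIK, or separate genes, and which holds here was not determined. Within 3 identifier numbers of the 4 transcripts there were 12 others, of which 10 were tested. PGSC0003DMT400055488, next to PALb, may thus be an isoform of the same gene or another one, and was the one with substantial counts, at a mean of 13750 normalized counts, 22.3% of PALb, and r = 0.50 with it. The rest had at most 1.53% of their neighbour's counts. Whether any of them encodes a PAL, a DAHP synthase or a peroxidase is not given in the sources used here.

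The same annotation source puts 8 more of its transcripts under metabolism, and they serve as the setting for these 4. Of the 8, 7 had enough counts to be tested, and 0 of 7 passed in the joint test of the lines or in any pair with edgeR. At an unadjusted p of 0.05, 1 of the 7 passed in the joint test, in line 47 against line 9 and in line 47 against line 12, close to the shares of all transcripts given above. It was PGSC0003DMT400049003, annotated as Cytochrome P450 like_TBP, whose counts ranged from 588 to 43775. Whether it encodes a cytochrome P450 enzyme was not tested. Catalase, which removes hydrogen peroxide, had a mean of 67740 normalized counts, close to the 4 transcripts, and polyubiquitin had 66109. The others lay between means of 4.44 and 22.7. The remaining steps of the shikimate and phenylpropanoid pathways were not analysed here.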

How the data were processed

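Skin RNA (RIN over 7) was sequenced on an Illumina HiSeq instrument from TruSeq libraries. The authors checked reads with FastQC 0.11.2, aligned them with Bowtie 2 to the S. tuberosum Group Phureja transcriptome and deposited estimated counts per transcript (effective counts) from eXpress 1.5.1. eXpress divides ambiguous fragments, so counts of similar copies depend on one another. Tables of 12 libraries were joined by identifier. For tests, effective counts were rounded and fitted in edgeR 4.0.16 (R 4.3.3) with genotype as 4 levels, TMM scaling, a minimum of 10 counts in all, and Benjamini-Hochberg adjustment over 38364 transcripts. Correlations used log2(normalized count + 0.5) with exact permutation tests over the 9 RNAi libraries (scipy 1.17.1). Alternatives used DESeq2 1.42.0, limma 3.58.1, other scalings, filters, a replicate block, lane tag, and leaving out each library. The fit was tested on simulated data.

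The labels call the replicates separate samples of a genotype, and p-values measure the spread between them. The members, lists and tests were chosen with earlier results of these data known. Named transcripts were the 4 members, StRIK, the other metabolism entries of the study's list, and for each member the 2 transcripts with the highest and the 2 with the lowest Pearson correlation; identifiers of these are printed for DAHP synthase alone because none is annotated. The transcript neighbouring PALb and the Cytochrome P450 like_TBP entry were singled out after their values were seen. No sequence is shown, since the identifiers matched no entry of the reference tables.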

Additional observations from a re-analysis of the deposited data

How the results depend on the processing

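None of the 4 transcripts passed the threshold among lines under any alternative: edgeR, DESeq2 and limma-voom adjusted p ran from 0.437 to 0.999 in the joint test (92 values) and from 0.386 to 1.0 in the pairs (276 values). Counts over all transcripts moved more. In the order joint, line 12 minus line 9, line 47 minus line 9, line 47 minus line 12, edgeR called 16, 14, 8 and 9, DESeq2 687, 293, 519 and 166, edgeR with the lane tag as a term 10, 9, 4 and 5, and with the 7 libraries of lane tag 7 alone, an alternative chosen after seeing the data, 3, 3, 0 and 0 (2918, 3048, 3248 and 1833 at an unadjusted p of 0.05). Line 47 has 1 library of lane tag 7, so in both lane tag settings its contrasts with lines 9 and 12 rest on that library. Without Wild type, line 47 minus line 9 had 13. With the replicate number as a block the counts were 11, 5, 8 and 6. The sources do not say whether the numbers pair the libraries. As deviations from genotype means, same-numbered libraries had mean correlations of -0.14, -0.06 and -0.17 against 0.07 for different numbers. Of the 12, 2 were closest to their own number. Such deviations sum to 0 within a genotype, which ties these means together, so the values cannot decide on a pairing.

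Leaving out 1 library gave 10 to 47, 6 to 22, 4 to 37 and 5 to 39. Without line 47 replicate 1 the counts were 47, 9, 37 and 39, without line 9 replicate 2 they were 29, 22, 4 and 23, without Wild type replicate 3 the joint count was 25 and line 47 minus line 9 was 15, without line 12 replicate 2 the joint count was 10 and line 12 minus line 9 was 6, without line 9 replicate 1 line 12 minus line 9 was 8 and line 47 minus line 12 was 20, without line 9 replicate 3 line 12 minus line 9 was 8, without line 47 replicate 2 it was 9 and line 47 minus line 9 was 4, without line 47 replicate 3 line 12 minus line 9 was 9, and without line 12 replicate 3 line 47 minus line 12 was 5. The cause was not tested.

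Differences near 0 changed sign. For line 12 minus line 9, DAHP synthase had a log2FC of -0.0077 with limma-voom and -0.0014 with library totals alone, and with 1 library left out it ran from -0.12 to 0.25, PALa from -0.36 to 0.15 and the peroxidase from -0.16 to 0.0056. For line 47 minus line 9 the peroxidase ran from -0.058 to 0.084. For line 47 minus line 12 PALb ran from -0.19 to 0.23, and PALa was 0.0398 with the lane tag as a term and 0.0398 with lane tag 7 alone. For the 6 RNAi libraries against Wild type, the log2FC with 1 library left out ran from -0.19 (without Wild type replicate 3) to 0.32 (without Wild type replicate 2) for DAHP synthase, from 0.43 to 0.68 for PALa, from -0.32 to -0.04 for PALb and from -0.08 to 0.16 for the peroxidase; the 3 other RNAi libraries gave DAHP synthase -0.37, and lane tag 6 alone gave PALa -0.057.

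Correlations that changed sign were DAHP synthase with the peroxidase (0.43 over the RNAi libraries, 0.40 over lane tag 7), PALa with PALb (-0.073 with library totals alone, -0.12 without the 2 farthest libraries, -0.087 as deviations from genotype means, -0.11 over lane tag 7), PALa with the peroxidase (-0.13 with library totals alone), DAHP synthase with PALa (-0.057) and PALb with the peroxidase (0.14), the last 2 without the 2 farthest libraries.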
